A study of Homo sapiens with 6 samples.

Results

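To find out how keratin and cornified-envelope genes behaved in lung fibroblasts, 8 genes were followed in the 2 deposited FPKM tables, out of 25368 gene symbols in each table. They are LCE1F, KRTAP2-3, KRTAP1-5, KRT34, KRT7, KRT8, KRT18 and KRT19. LCE1F and KRTAP2-3 were selected on the size of their changes in these same libraries. The other genes were grouped with them by family name, and this choice too was made with earlier results of these data known. All cells were MRC5, human embryonic lung fibroblasts immortalised with hTERT. In the JUN overexpression table, MRC5 had been infected with adenovirus for an empty vector (the control), FLAG-tagged JUN WT, or JUN AA, in which both serines phosphorylated by JNK are alanines. In the JNKi table, uninduced MRC5 stood beside iCAFs, which are MRC5 kept for 7 days in medium conditioned by MDA-MB-231 breast cancer cells, and beside iCAFs given 1 µM of the JNK inhibitor JNK-IN-8 (JNKi) for 48 h. The protocol names DMSO as the vehicle, and the label of the iCAFs library does not state whether it received DMSO. The conditioned medium had been collected without serum, so serum and tumour cell factors cannot be told apart in iCAFs against MRC5.

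Each condition had 1 library, so no difference below has a replicate check, an error or a p-value. FPKM are fragments scaled to exon length and to the total of mapped fragments, and can be compared between genes in a library. Levels were compared between libraries only within a table, as log2(FPKM + 1) differences, which understate the changes of low genes. A gene was counted as measured at a mean of at least 1 FPKM over the 3 libraries of its table, and as changed at a log2 difference of at least 1, which is 2-fold. The number of reads behind each value is unknown, and a gene at 0 is given only as listed at 0. In these bulk libraries, fewer expressing cells and less RNA per cell cannot be told apart. JUN was at 25.5 (control), 4543 (JUN WT) and 291 FPKM (JUN AA), so the loss of the phosphorylation sites and the lower amount of JUN mRNA cannot be told apart either. The median change of all measured genes was 0.15 in JUN WT against control, -0.015 in JUN AA against control, -0.06 when iCAFs were set against MRC5 and -0.10 when iCAFs+JNKi were set against iCAFs.

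Keratins are the intermediate filament proteins of epithelia, built from pairs of a type I and a type II chain. KRT8 and KRT7 are type II and KRT18 and KRT19 are type I keratins of simple epithelia, whereas KRT34 is a type I keratin of hair. Keratin-associated proteins (KRTAP) are small cysteine-rich proteins that cross-link hair keratin filaments. Late cornified envelope (LCE) proteins are small substrates of transglutaminases in the outer epidermis. Fibroblasts build their intermediate filaments mainly from vimentin, the product of VIM, which was at 1480 to 2927 FPKM with the adenoviruses and 1209 to 2892 FPKM in the JNKi table.

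Several of these genes have near-identical copies, and the FPKM of such copies depend on how reads that fit more than one gene were divided. KRTAP2-3 is a gene with 1 exon on the minus strand of chromosome 17 of GRCh37 (hg19), from 39215492 to 39216366. Its coding sequence of 384 bases was identical to that of KRTAP2-4 at 383 bases and to that of KRTAP2-1 at 382 bases. The stretch of 90 coding bases around the difference from KRTAP2-4 is shown because a read must cover this base to tell them apart there, and the capitals mark the bases that differ. It spans coding bases 288 to 377, at chr17:39215926-39216015 for KRTAP2-3 and chr17:39221721-39221810 for KRTAP2-4, both on the minus strand of GRCh37.

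KRTAP2-3: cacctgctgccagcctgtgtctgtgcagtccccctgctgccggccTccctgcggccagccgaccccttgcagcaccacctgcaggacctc
KRTAP2-4: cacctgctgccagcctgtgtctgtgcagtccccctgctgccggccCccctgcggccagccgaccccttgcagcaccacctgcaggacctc

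LCE1F lies on the plus strand of chromosome 1, from 152747616 to 152749500, with 2 exons. Its coding sequence of 354 bases was identical to that of LCE1E at 326 bases. The stretch of 90 coding bases in which they differ least is given for comparison, again with differing bases in capitals. It spans coding bases 85 to 174, at chr1:152748932-152749021 for LCE1F and chr1:152759860-152759949 for LCE1E, on the plus strand of GRCh37. These sequences differ at 3 bases.

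LCE1F: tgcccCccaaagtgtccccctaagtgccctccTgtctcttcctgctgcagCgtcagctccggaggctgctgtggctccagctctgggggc
LCE1E: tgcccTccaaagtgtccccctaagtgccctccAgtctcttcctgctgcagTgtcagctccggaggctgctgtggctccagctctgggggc

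Over whole transcripts, 39.7% of all stretches of 50 bases in KRTAP2-3 also occurred in another gene, and 34.0% of those of 100 bases did. For LCE1F these shares were 2.36% and 0%, and for KRTAP1-5 (1 exon, minus strand of chromosome 17, 39182278 to 39183460) they were 4.41% and 0%. KRT34 (7 exons, minus strand of chromosome 17, 39533921 to 39538558) shared 12.2% of its stretches of 50 bases, mostly with the hair keratins KRT33B, KRT33A and KRT31. KRT19 (6 exons, minus strand of chromosome 17, 39679869 to 39684560) shared 1.79% with its pseudogene KRT19P1. KRT7 (9 exons, plus strand of chromosome 12, 52626304 to 52645970) shared 11.7%, mostly with KRT7-AS, an antisense gene that overlaps its exons. KRT8 (minus strand of chromosome 12, 53290971 to 53343738) and KRT18 (plus strand of chromosome 12, 53342655 to 53346690) overlap each other's exons on opposite strands, and both also matched pseudogenes. The shared part was 22.1% for the longest transcript of KRT8 and 34.4% for that of KRT18, and 3.73% and 44.6% for their longest protein-coding transcripts, a choice made after the data were seen. As the strand setting of the counting is not given in the sources used here, reads of KRT8 and KRT18 in the overlap cannot be told apart.

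**Figure D1:**
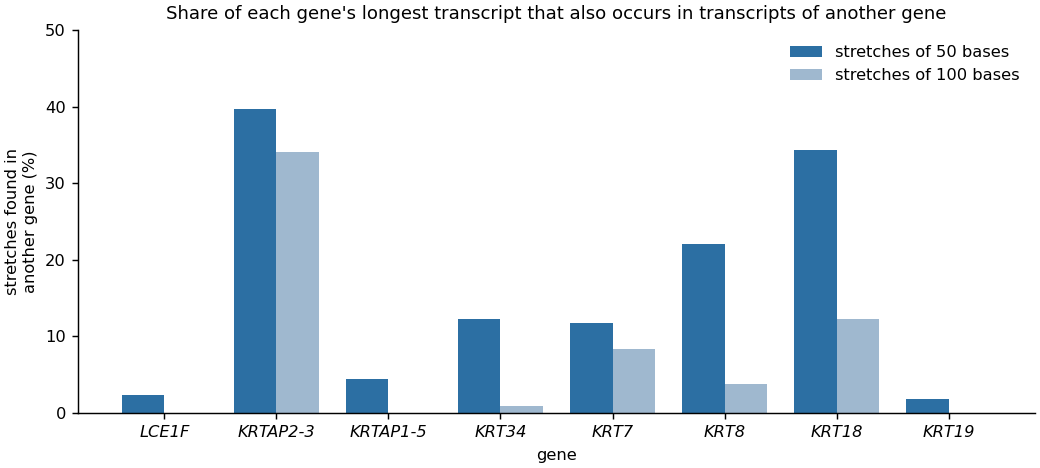
Bars give the percentage of stretches of 50 bases (dark) and 100 bases (light) in the longest annotated transcript of each gene (x axis) that also occur in a transcript of another gene. KRTAP2-3 stands highest at both lengths, at 39.7% and 34.0%, while LCE1F, KRTAP1-5 and KRT19 have no shared stretch of 100 bases.

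LCE1F was listed at 0 in the control and reached 12.9 (JUN WT) and 19.1 FPKM (JUN AA). Both JUN libraries were thus high and the control was not, and no fold change can be given against a listed 0. JUN AA stood above JUN WT by 1.48 times. The log2 difference of JUN WT against JUN AA shrank from -0.53 to -0.25 after rescaling to the same FPKM sum. In the JNKi table, LCE1F was at 1.80 (MRC5), 2.68 (iCAFs) and 4.05 FPKM (iCAFs+JNKi). On the log2(FPKM + 1) scale it stayed below 2-fold in each comparison of that table, with differences of 0.39 in iCAFs against MRC5, 0.46 with JNKi against iCAFs and 0.85 with JNKi against MRC5, although the FPKM of the last comparison differed 2.25 times. With a change of 3.80 in JUN WT against control on the log2 scale, LCE1F lay above 99.97% of the measured genes, which describes the gene as it was picked. The nearest copies of LCE1F did not follow it in level. LCE1B, LCE1C and LCE1D were listed at 0 in all 6 libraries, LCE1A was at most 0.041 FPKM, and LCE1E reached 0.46 (JUN WT) and 0.26 FPKM (JUN AA).

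The wider LCE family comprised 18 genes in the tables, 5 of them measured in each table. In the JUN overexpression table, 15 of the 18 were listed at 0 in the control, so that most measured LCE genes passed the filter through the JUN libraries. Of the 5, 4 were at least 2-fold higher in JUN WT and 4 in JUN AA than in cells with empty vector (background 6.92% and 5.29% of all measured genes), with median log2 differences of 2.02 and 1.82 over the 5 genes. LCE2C, for example, was listed at 0 without added JUN and reached 7.99 (JUN WT) and 1.65 FPKM (JUN AA). LCE2A was the exception, at 16.0 (control), 16.7 (JUN WT) and 16.9 FPKM (JUN AA). It was the highest LCE gene in the control.

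In the JNKi table, 3 LCE2 genes were at least 2-fold lower with JNKi, which LCE1F was not. LCE2C was at 40.7 (MRC5), 80.0 (iCAFs) and 9.72 FPKM (iCAFs+JNKi). LCE2B was at 38.5, 27.2 and 5.03 FPKM and LCE2D at 1.14, 12.1 and 0 FPKM in the same order. LCE2A differed from these, as it was the highest LCE gene in MRC5, at 47.7 FPKM, and stood at 19.3 (iCAFs) and 16.6 FPKM (iCAFs+JNKi). Of the 5 measured LCE genes, 3 were thus at least 2-fold lower in iCAFs+JNKi than in iCAFs (background 1.97% of all measured genes) and none at least 2-fold higher (background 2.25%), with a median log2 difference of -2.22. LCE2D passed the filter only through iCAFs, the library in which it was high, so its fall is not a separate observation. The coding sequence of LCE2C was 97.9% identical to that of LCE2D and 97.3% to that of LCE2B, so the division of reads among these genes is uncertain. The summed FPKM of all LCE genes was 130 (MRC5), 142 (iCAFs) and 36.0 (iCAFs+JNKi), and LCE1F made up 1.38%, 1.89% and 11.2% of it. In the JUN overexpression table, the sum was 16.7 (control), 44.6 (JUN WT) and 46.6 (JUN AA), and LCE1F made up 29.0% of it in JUN WT and 41.0% in JUN AA.

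Other precursors and enzymes of the cornified envelope had low values. Of 35 such genes, none was measured in the table with adenoviruses, and IVL was the only gene measured in the JNKi table. IVL encodes involucrin, a scaffold protein of the cornified envelope. It was at 0.54 (MRC5), 4.09 (iCAFs) and 0.24 FPKM (iCAFs+JNKi), and it was listed at 0 in the control, JUN WT and JUN AA. IVL passed the filter only through iCAFs, the library in which it was high. The loricrin, filaggrin and small proline-rich protein genes were each below a mean of 1 FPKM in both tables. The 35 genes together summed to between 0.97 and 4.86 FPKM in the 6 libraries.

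**Figure D2:**
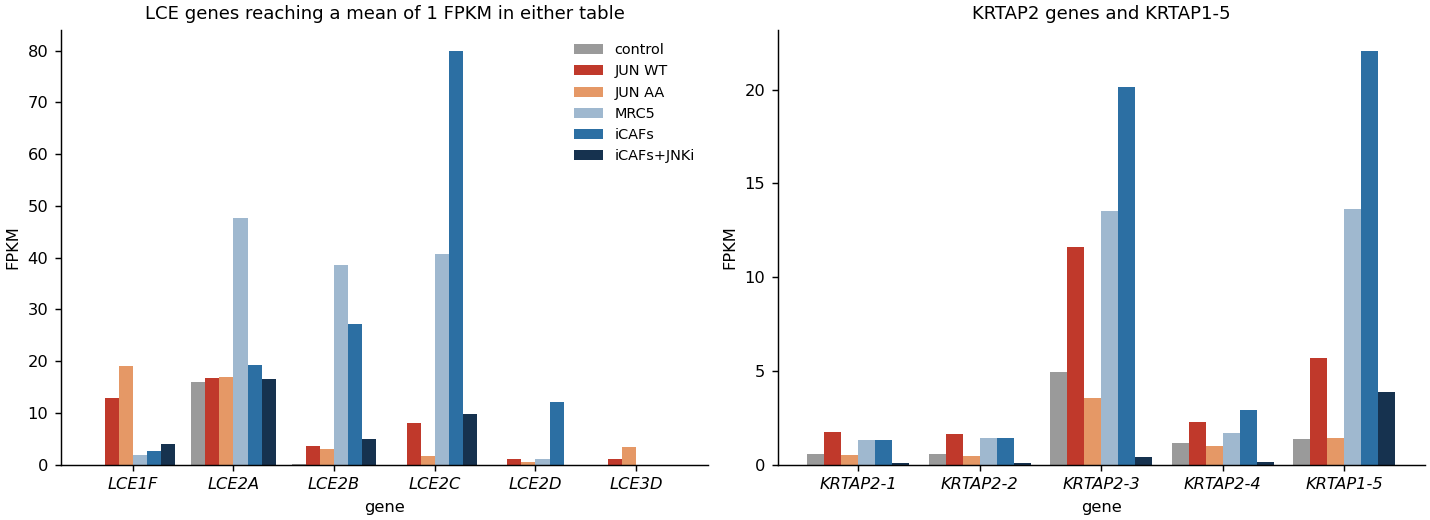
Bars give FPKM (y axis) in each of the 6 libraries for the LCE genes measured in either table (left) and for the KRTAP2 genes and KRTAP1-5 (right). LCE2C, LCE2B and LCE2D are lower in iCAFs+JNKi than in iCAFs, whereas LCE1F is higher. Each KRTAP2 gene is highest of its table in JUN WT and lowest in iCAFs+JNKi. KRTAP2-1 and KRTAP2-2 stand at about the same level in MRC5 and iCAFs. The tables of the control, JUN WT and JUN AA and of MRC5, iCAFs and iCAFs+JNKi were normalised separately.

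KRTAP2-3 was at 4.94 (control), 11.6 (JUN WT) and 3.57 FPKM (JUN AA). JUN WT was thus high, and JUN AA was below the control. The log2 difference of JUN AA against control was -0.38, and -0.69 after rescaling to the same sum. The level in JUN WT was 2.36 times that in the control and 3.26 times that in JUN AA, with log2 differences of 1.09 and 1.47. Centred on the median gene, the difference from the control was 0.94, below 2-fold. Among the JNKi libraries, KRTAP2-3 was at 13.5 (MRC5), 20.1 (iCAFs) and 0.39 FPKM (iCAFs+JNKi). It fell by 3.92 on the log2 scale with JNKi, to a level below that of uninduced MRC5, whereas the difference of 0.54 in iCAFs against MRC5 was below 2-fold. Only 0.017% of the measured genes fell further with JNKi, which describes KRTAP2-3 as a gene picked for its changes.

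Because of the shared coding sequence, the KRTAP2 genes were also summed. Their sum was 7.22 (control), 17.3 (JUN WT) and 5.58 FPKM (JUN AA), and 18.0 (MRC5), 25.8 (iCAFs) and 0.69 FPKM (iCAFs+JNKi). The log2 differences of the sum were 1.16 in JUN WT against control and -3.99 in iCAFs+JNKi against iCAFs, close to those of KRTAP2-3 alone. KRTAP2-3 held between 57.0% and 78.0% of the sum in the 6 libraries. KRTAP2-4, which lies 5765 bases away from start to start, was at 1.14, 2.29 and 1.02 FPKM in the control, JUN WT and JUN AA and at 1.71, 2.93 and 0.15 FPKM in MRC5, iCAFs and iCAFs+JNKi. KRTAP2-1 was at 0.55, 1.77 and 0.51 FPKM and at 1.32, 1.34 and 0.072 FPKM in the same order, and KRTAP2-2 at 0.59, 1.65 and 0.48 FPKM and at 1.43, 1.40 and 0.078 FPKM. Both stood at about the same level in MRC5 and iCAFs, unlike KRTAP2-3. The values of these 4 genes are not independent observations.

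KRTAP1-5, which shares no stretch of 100 bases with another gene, was likewise highest in JUN WT and iCAFs and lowest of its table with JNKi. It was at 1.38 (control), 5.71 (JUN WT) and 1.44 FPKM (JUN AA). The level in JUN WT was 4.14 times that in the control, a log2 difference of 1.50, and the difference of 0.037 in JUN AA turned to -0.18 after rescaling to the same sum. The JNKi libraries were at 13.6 (MRC5), 22.1 (iCAFs) and 3.89 FPKM (iCAFs+JNKi). KRTAP1-5 fell by 2.24 on the log2 scale with JNKi, and the level in iCAFs was 5.67 times that in iCAFs+JNKi. Of the 93 KRTAP genes in the tables, 3 were measured, namely KRTAP2-3, KRTAP2-4 and KRTAP1-5. All 3 were at least 2-fold lower in iCAFs+JNKi than in iCAFs (background 1.97%), but KRTAP2-3 and KRTAP2-4 share sequence and do not count separately. Of the 93 genes, 79 to 87 were listed at 0 in each library.

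KRT34, the hair keratin among the 8 genes, was near the limit of 1 FPKM. It was at 0.90 (control), 2.19 (JUN WT) and 1.00 FPKM (JUN AA), so that JUN WT was again the highest library. The log2 difference in JUN WT against control was 0.74, below 2-fold on this scale, although the FPKM differed 2.42 times. Across the JNKi libraries, KRT34 was at 1.30 FPKM in MRC5 and 1.65 FPKM in iCAFs and listed at 0 in iCAFs+JNKi, and it did not reach the mean of 1 FPKM. Its level in JUN AA against control changed direction with scaling, from a log2 difference of 0.069 to -0.11 after rescaling to equal FPKM sums.

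The 3 genes KRTAP2-3, KRTAP1-5 and KRT34 lie on chromosome 17, with 32906 bases between the starts of KRTAP2-3 and KRTAP1-5 and 322192 bases between those of KRTAP2-3 and KRT34. Of 59 genes of the tables whose starts lie within 500000 bases of that of KRTAP2-3, 5 were measured in the JUN overexpression table. Of these, KRTAP1-5 was at least 2-fold higher in JUN WT than in the control (background 6.92% of all measured genes). SMARCE1, a chromatin remodelling subunit outside the keratin family, had a log2 difference of 0.56. KRT10, a type I keratin of the upper epidermis, was at 18.9 (control), 35.4 (JUN WT) and 23.8 FPKM (JUN AA). With JNKi, 2 of the 4 measured neighbours were at least 2-fold lower (background 1.97%), KRTAP1-5 and KRTAP2-4. KRTAP2-4 shares sequence with KRTAP2-3, and KRTAP1-5 is among the genes picked with these values known, so nothing is read from these counts. KRT10 was at 18.0 (iCAFs) and 11.1 FPKM (iCAFs+JNKi), and SMARCE1 had a log2 difference of -0.09. KRT34, in the same window, went from 1.65 FPKM to a listed 0 and was not counted because that 0 took its mean to 0.98 FPKM.

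**Figure D3:**
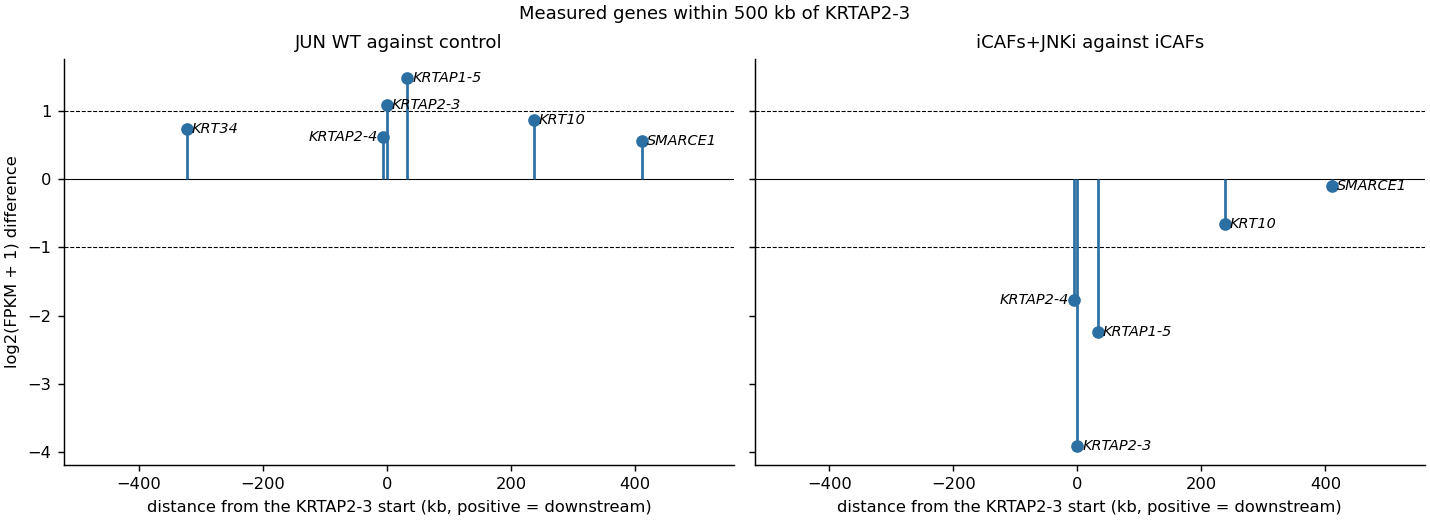
Points give the log2(FPKM + 1) difference (y axis) of measured genes by the distance of their start from that of KRTAP2-3 (x axis, kb), in JUN WT against control (left) and iCAFs+JNKi against iCAFs (right), and dashed lines mark 2-fold. KRTAP2-3, KRTAP1-5 and KRTAP2-4 fell by 3.92, 2.24 and 1.78 with JNKi, while SMARCE1 stood at -0.09; KRT34 is not shown on the right because its mean there was below 1 FPKM.

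The promoters of these 3 genes and of LCE1F were read, since JUN binds DNA as part of AP-1. Sequences are those of RefSeq on GRCh38.p14, which held promoters for 5 of the 8 genes, from 250 bases before to 50 after the start. The last 150 bases before each start are printed 5′ to 3′, with the hexamer TATAAA in capitals. They lie at chr17:41060115-41060264, minus strand, for KRTAP2-3, chr17:41027209-41027358, minus strand, for KRTAP1-5, chr17:41382307-41382456, minus strand, for KRT34, and chr1:152774990-152775139, plus strand, for LCE1F.

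KRTAP2-3: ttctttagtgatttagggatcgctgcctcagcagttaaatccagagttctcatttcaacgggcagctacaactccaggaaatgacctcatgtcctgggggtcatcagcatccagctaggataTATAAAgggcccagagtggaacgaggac
KRTAP1-5: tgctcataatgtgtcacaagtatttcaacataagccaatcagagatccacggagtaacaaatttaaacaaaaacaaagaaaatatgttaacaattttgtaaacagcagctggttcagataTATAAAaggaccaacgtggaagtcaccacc
KRT34: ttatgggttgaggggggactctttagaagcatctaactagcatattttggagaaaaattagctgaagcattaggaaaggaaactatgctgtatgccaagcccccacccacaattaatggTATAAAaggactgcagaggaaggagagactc
LCE1F: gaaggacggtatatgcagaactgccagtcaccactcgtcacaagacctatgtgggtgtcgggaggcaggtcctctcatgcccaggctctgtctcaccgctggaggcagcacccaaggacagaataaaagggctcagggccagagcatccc

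KRTAP2-3, KRTAP1-5 and KRT34 carry TATAAA on the gene's strand with its first base at positions -28, -30 and -31, counted with the start at 0. Of all 35116 promoters in the RefSeq table, 2.63% hold this hexamer on that strand within the last 50 bases before the start. No such copy was found there for LCE1F or KRT8. The AP-1 heptamer, written TGACTCA or on the other strand TGAGTCA, was found in none of the promoters of KRTAP2-3, KRTAP1-5, KRT34, LCE1F and KRT8, and in 4.95% of all promoters of this length. The related octamer TGACGTCA, which reads the same on both strands, was found in none of these either and in 1.85% of all promoters. These counts say only which letters lie in the stretches searched.

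KRT18 and KRT8, which form the filament pair of simple epithelia, were the highest of the 8 genes in the control, and both were lower with JUN. KRT18 was at 36.7 (control), 15.2 (JUN WT) and 9.87 FPKM (JUN AA). Both JUN libraries were low, JUN AA lower than JUN WT, and the control was 2.41 and 3.72 times as high. KRT8 was at 19.3 (control), 5.80 (JUN WT) and 9.65 FPKM (JUN AA), with log2 differences of -1.58 and -0.93. For KRT8, JUN WT was thus the lowest library. The ratio of KRT18 to KRT8 was 1.90 (control), 2.63 (JUN WT) and 1.02 (JUN AA).

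In the JNKi table, the pair stayed below 2-fold in each comparison. KRT18 was at 28.7 (MRC5), 24.8 (iCAFs) and 29.5 FPKM (iCAFs+JNKi). KRT8 was at 8.83 (MRC5), 7.06 (iCAFs) and 9.67 FPKM (iCAFs+JNKi). Their log2 differences ranged from -0.29 to 0.40 over the comparisons of this table, and the ratio of KRT18 to KRT8 from 3.05 to 3.51. With JNKi against iCAFs, the differences of 0.40 (KRT8) and 0.24 (KRT18) lay above 90.9% and 84.1% of the measured genes. iCAFs was the lowest library for both genes, but with 1 library per condition no spread can be set beside these differences.

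KRT7 and KRT19 were low in every library and were measured in neither table. KRT7 was at 0.85 (control), 0.15 (JUN WT) and 0.20 FPKM (JUN AA), and at 0.25 (MRC5), 0.50 (iCAFs) and 1.45 FPKM (iCAFs+JNKi). It was lower in both JUN libraries than in the control and highest with JNKi in the other table. KRT19 was at 0.15 (control), 0.47 (JUN WT) and 0.20 FPKM (JUN AA). In the JNKi table, it was at 1.78 FPKM in MRC5 and 0.90 FPKM in iCAFs and listed at 0 in iCAFs+JNKi. At an unknown number of reads, none of these differences can be told from counting error.

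**Figure D4:**
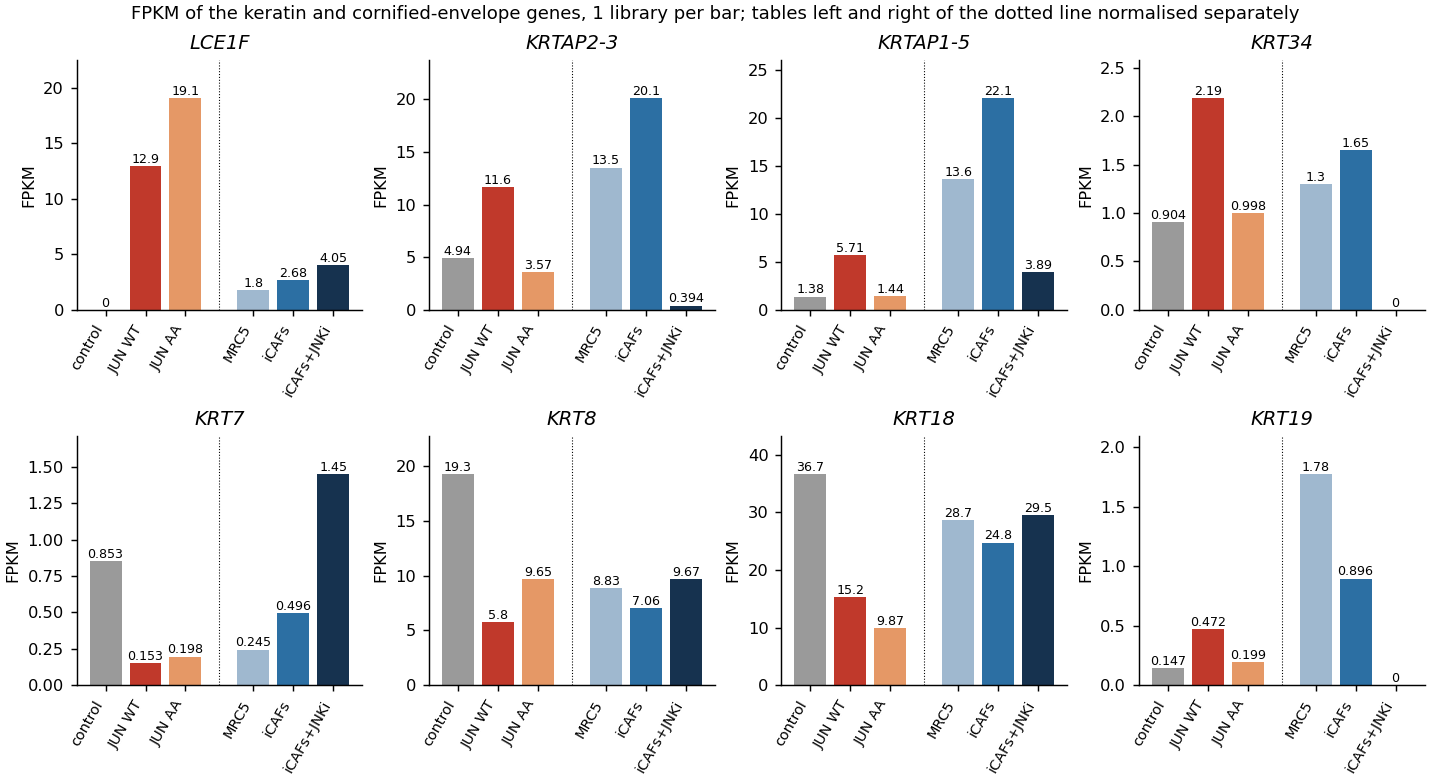
Bars give the FPKM of each gene (1 panel per gene, each with its own scale from 0) in the control, JUN WT and JUN AA, left of the dotted line, and in MRC5, iCAFs and iCAFs+JNKi, right of it. KRTAP2-3, KRTAP1-5 and KRT34 peak in JUN WT and iCAFs, LCE1F is highest in JUN AA, and KRT8 and KRT18 are higher in the control than in JUN WT and JUN AA.

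Counted over the genes that were measured, 3 of 6 were at least 2-fold higher in JUN WT than in the control (LCE1F, KRTAP2-3 and KRTAP1-5), against a background of 6.92% of all 10311 measured genes. KRT8 and KRT18 were at least 2-fold lower, with a background of 3.39%. In JUN AA against control, LCE1F was the 1 gene at least 2-fold higher (background 5.29%) and KRT18 the 1 gene at least 2-fold lower (background 3.77%). The 2 comparisons share the control library. In JUN WT against JUN AA, KRTAP2-3 and KRTAP1-5 were at least 2-fold higher (background 6.65%), and none was at least 2-fold lower (background 5.61%). Since the genes were picked with these values known, nothing is read from their counts.

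In iCAFs against MRC5, 0 of the 5 measured genes reached a 2-fold change, with backgrounds of 1.94% higher and 1.71% lower among 11780 genes. KRTAP1-5, with a log2 difference of 0.66, came closest. In iCAFs+JNKi against iCAFs, KRTAP2-3 and KRTAP1-5 were at least 2-fold lower (background 1.97%) and none was at least 2-fold higher (background 2.25%). In iCAFs+JNKi against MRC5, the same 2 genes were at least 2-fold lower, with log2 differences of -3.38 and -1.58 (background 3.53%), and none was at least 2-fold higher (background 3.28%). LCE1F, at 0.85 in this comparison, came to 1.02 when centred on the median gene. The directions of all changes of at least 2-fold given here were the same with FPKM rescaled to the same sum and with changes centred on the median gene. Neither setting shifts values enough to reverse such a change.

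**Figure D5:**
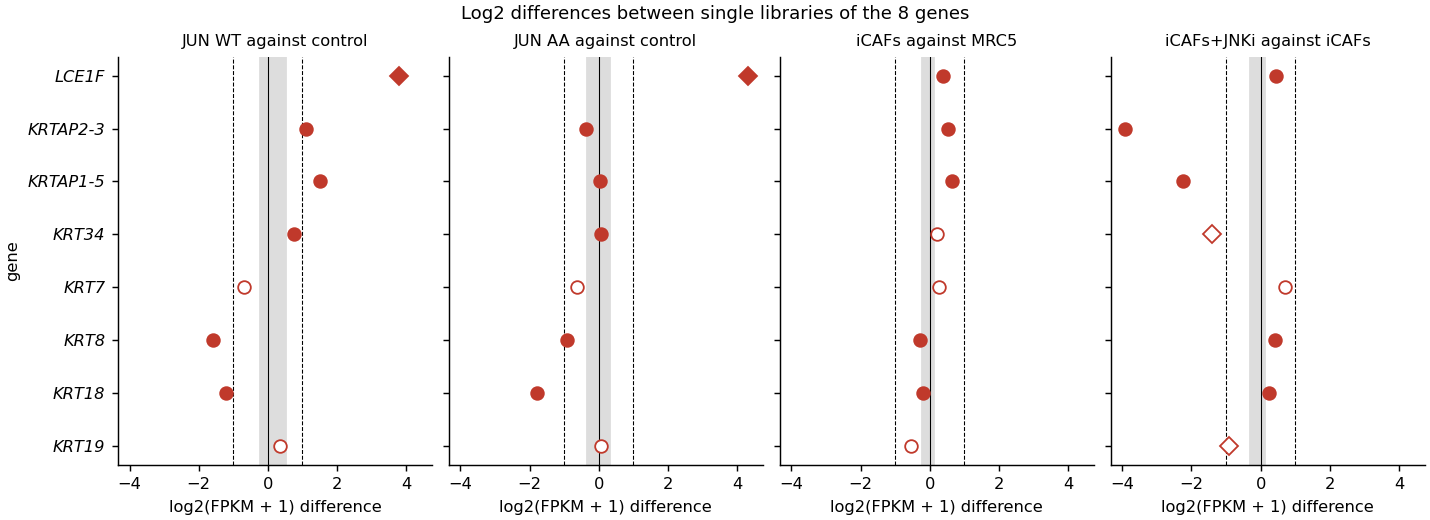
Points give the log2(FPKM + 1) difference (x axis) of the 8 genes (y axis) in 4 comparisons, filled for a mean of at least 1 FPKM in the table and diamonds where 1 of the libraries compared was listed at 0. Dashed lines mark 2-fold and the grey band the lower to upper quartile of all measured genes; KRTAP2-3 and KRTAP1-5 lie right of the band in JUN WT and far left of it with JNKi, while KRT8 and KRT18 lie left of it in both JUN libraries.

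Most other keratin genes were listed at 0. Of 29 type I keratin genes, between 14 and 25 were listed at 0 in a library, and of 26 type II genes 22 or 23. Apart from the genes followed here, KRT10 was measured in both tables and KRT80, a type II keratin, in the JNKi table. KRT80 was at 2.67 (MRC5), 1.16 (iCAFs) and 2.02 FPKM (iCAFs+JNKi).

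Desmosomal proteins and cytolinkers, which anchor keratin filaments in epithelia, were measured for 6 of 19 genes in the table with adenoviruses and for 7 in the JNKi table. In JUN WT against control, 1 rose and 1 fell by 2-fold or more (background 6.92% and 3.39%). JUP, which encodes plakoglobin of desmosomes and adherens junctions, was at 44.4 (control), 10.3 (JUN WT) and 16.6 FPKM (JUN AA), low in the libraries in which KRT8 and KRT18 were low. DSG2, a desmosomal cadherin, was at 1.01, 5.82 and 0.90 FPKM in these libraries. In the JNKi table, JUP was at 23.0 (MRC5), 30.0 (iCAFs) and 43.5 FPKM (iCAFs+JNKi). There it was lowest in MRC5, whereas KRT8 and KRT18 were lowest in iCAFs. In iCAFs+JNKi against iCAFs, DSP was the 1 gene of the list that was at least 2-fold higher (background 2.25%), and none was 2-fold lower. DSP encodes desmoplakin, which links desmosomes to keratin filaments, and was at 3.50 (MRC5), 5.47 (iCAFs) and 16.4 FPKM (iCAFs+JNKi).

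Markers of epithelial and mesothelial cells were also read. CDH1, the cadherin of epithelial junctions, was listed at 0 in all 6 libraries, and the epithelial adhesion gene EPCAM was at most 0.24 FPKM. None of 14 epithelial markers reached a mean of 1 FPKM in either table, 6 to 9 of them were listed at 0 in each library, and their sum lay between 1.17 and 1.91 FPKM. Of 7 mesothelial markers only CALB2 was measured, at 1.76 (control), 4.81 (JUN WT) and 0.37 FPKM (JUN AA), and at 6.73 (MRC5), 1.29 (iCAFs) and 1.07 FPKM (iCAFs+JNKi). All 11 fibroblast markers were at 1 FPKM or more in all 6 libraries, with sums between 4484 and 7325 FPKM. They moved with the conditions too, as JUN WT had 4 of them at least 2-fold below the control and iCAFs+JNKi had 7 at least 2-fold above iCAFs, against backgrounds of 3.39% and 2.25%. The part of any of these marker levels in the results above was not tested. Among epidermal transcription factors, 3 of 13 were measured in each table. KLF4, a zinc finger factor of the upper epidermis, was at 2.32 (control), 6.01 (JUN WT) and 1.96 FPKM (JUN AA). It was at 4.64 (MRC5), 1.97 (iCAFs) and 1.10 FPKM (iCAFs+JNKi). TP63, the main regulator of the epidermis, was below a mean of 1 FPKM in both tables.

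Genes with a pattern like that of each gene were sought among 10020 genes measured in both tables, by the Euclidean distance over 4 log2 differences (JUN WT and JUN AA against control, iCAFs against MRC5 and iCAFs+JNKi against iCAFs). The smaller the distance, the more alike the patterns. KRTAP1-5 was closest to RCAN1, an inhibitor of calcineurin, at a distance of 0.83, followed by CLDN1 and DCBLD2. KRTAP2-3 was closest to SERF2-C15ORF63, a readthrough gene by its name, at 1.35, and then to PTX3, a secreted pattern recognition protein, at 1.93. KRT8 had closer neighbours, with KIAA0930 at 0.24, PIK3IP1 and FDXR. KRT18 was closest to COL18A1, a basement membrane collagen, at 0.37, and PLXNB1. For LCE1F the closest genes, KTI12 at 1.92, RPL36A-HNRNPH2 and SERPINB2, were all distant. The differences were not scaled, so genes with large changes tend to lie far from others. Since LCE1F and KRTAP2-3 were picked for large changes, their distances say nothing on how particular their patterns are.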

How the data were processed

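RNA-seq was carried out on 6 libraries of MRC5 cells, 1 per condition. The deposited FPKM tables were made by the authors, whose processing notes name HISAT2 2.1.0, StringTie 2.1.1, deepTools 3.5.1 and the build hg19. Which annotation and strand setting were used, and the read numbers, are not given in the sources used here. Depth is therefore unknown, and no interval can be given. All columns matched a sample (0 unmatched). FPKM sums ranged from 359944 to 613184 per library.

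Samples were grouped by their labels. Levels were compared within a table as log2(FPKM + 1) with Python 3.11.15, numpy 2.4.6 and pandas 2.3.3, with the limits given above. With 1 library per condition no test was made. The members and gene lists were chosen with earlier results of these data known. All 8 genes were named, with at most 4 measured genes per list and comparison and the 3 nearest genes in pattern. Neighbouring genes, unmeasured family members and markers at or near 0 were named after their values were seen. Positions, transcripts and shared stretches came from the GRCh37 annotation GENCODE v44lift37, and promoters from RefSeq GRCh38.p14. The calculation was checked on made-up data with known differences and no noise, so the outcome was fixed in advance. That check says nothing on low genes or on variation between libraries. Alternatives were a pseudocount of 0.1, no filter, a mean of at least 5 FPKM, FPKM rescaled to the same sum of 1000000 and changes centred on the median gene.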

Additional observations from a re-analysis of the deposited data

How the results depend on the processing

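No paired analysis was possible because each condition has 1 library, and for the same reason no replicate could be left out. Among the 8 genes, no change of at least 2-fold reversed under any alternative run. This was fixed in advance, since no setting used here shifts values enough to reverse such a change. Centring on the median gene shifts all differences of a comparison by the same amount, 0.18 at the largest. It therefore could not move any of the 48 differences of the 8 genes by more than 0.25. With FPKM rescaled to the same sum of 1000000, 22 of them moved further than 0.25, and 21 did with a pseudocount of 0.1. That sum lies above the FPKM sum of every library, so rescaling raised all values and also lessened the weight of the added 1. LCE1F in JUN WT against control moved from 3.80 to 4.75, although the FPKM sums were 494603 (control) and 498514 (JUN WT). With a mean of at least 5 FPKM, 1 gene instead of 2 differed at least 2-fold between JUN WT and JUN AA, and without a filter 4 instead of 2 did between iCAFs+JNKi and MRC5, since fewer or more genes were then counted. Scaling and the pseudocount changed counts too. In JUN WT against control, 5 genes became 4 with centring, as KRTAP2-3 fell to 0.94, and 6 with a pseudocount of 0.1. In JUN AA against control, 2 became 3 with rescaling, with KRT8 at -1.26. Between JUN WT and JUN AA, 2 became 3 with rescaling or that pseudocount. In iCAFs+JNKi against MRC5, 2 became 3 with centring, rescaling or that pseudocount, as LCE1F then passed 2-fold (1.02 when centred). At stretches of 100 bases, 5 of the 8 genes shared sequence with another gene, against 8 at 50 bases.

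Over all genes, a pseudocount of 0.1 raised the number changed at least 2-fold from 1064 to 1756 in JUN WT against control, from 934 to 1431 in JUN AA against control, from 430 to 674 in iCAFs against MRC5, from 497 to 769 in iCAFs+JNKi against iCAFs and from 802 to 1214 in iCAFs+JNKi against MRC5. A mean of at least 5 FPKM left 316 and 529 in the last 2 comparisons, as fewer genes were counted. Rescaling raised the number in JUN WT against JUN AA from 1264 to 2134. The share of changed genes that were higher went from 67.1% to 45.5% with centring in JUN WT against control, and from 58.4% to 26.1% with rescaling in JUN AA against control, where the median gene moved to -0.29. It went from 54.3% to 82.9% with rescaling and 33.3% with centring in JUN WT against JUN AA, from 53.3% to 64.0% with centring in iCAFs+JNKi against iCAFs, and from 48.1% to 59.3% with rescaling and 65.9% with centring in iCAFs+JNKi against MRC5. The cause was not tested.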

Other observations

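Near LCE1F, C1orf68, a small gene of the epidermal differentiation complex, was at 0.031 FPKM in the control, 9.73 FPKM with JUN WT and 0.72 FPKM with JUN AA. PRDM1, a transcriptional repressor of the upper epidermis, was at 1.48 (control), 1.12 (JUN WT) and 0.57 FPKM (JUN AA), and at 1.24 (MRC5), 4.37 (iCAFs) and 9.90 FPKM (iCAFs+JNKi). These values come from 1 library per condition and have no replicate check.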
